A study of Mus musculus with 6 samples.

Results

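Transcripts of the cytosolic ribosomal proteins were described in mouse macrophages (BMDM) that are grown in culture from precursors of the bone marrow. The group was taken by gene symbol, as Rpl, Rps, Rplp0 to Rplp2 and Rpsa without the rows marked as pseudogenes by the suffix -ps, and held 90 of the 55291 genes in the deposited table. Of these, 77 are the core genes of the ribosome, 46 for the large and 31 for the small subunit, 7 are protein-coding paralogs, and 6 are intronless retrocopies that GENCODE mouse release 21 annotates as pseudogenes although their names carry no such suffix. The RNA-seq set compared 3 libraries of untreated BMDM with 3 libraries of BMDM pretreated with apoptotic cells (AC). The sources used here give no strain, age or genotype for the mice, and no origin, amount or exposure time for the apoptotic cells. The labels do not tell whether the replicates were separate cultures or separate mice. Every p-value therefore reflects the spread among these 6 libraries alone, and that spread may be technical.

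Ribosomal proteins assemble with ribosomal RNA into the subunits that translate mRNA, and their genes are among the most steadily transcribed of the cell. Their mRNAs typically begin with a C followed by a run of pyrimidines, the 5′ terminal oligopyrimidine (TOP) tract. Through this tract their translation is coupled to growth signalling by mTORC1 and the RNA-binding protein LARP1. Translational control of this kind leaves mRNA levels largely as they are, and RNA-seq measures the mRNA level only.

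Pyrimidine runs like the tract that the group is known for were found at a part of the listed starts. RefSeq promoters on GRCm38.p6 matched 65 of the 90 symbols, with 77 listed starts in all. The 60 bases from 40 before to 20 after the listed start are shown for 6 genes that the results below turn on. Capitals mark, where there is one, a pyrimidine run from its first C within 10 bases of the listed start. The base before that C was not checked, and in Rplp2 it is a T. Rps6, Rplp2 and Rpl13a have long runs near the listed start, as does Rps10. Rpl41 has none in this window, and for Rpl35a the start with a run is shown out of 3 listed.
Rps6: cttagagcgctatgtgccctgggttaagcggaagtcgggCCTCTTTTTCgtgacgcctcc
Rplp2: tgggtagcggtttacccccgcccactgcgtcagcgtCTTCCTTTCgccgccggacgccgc
Rpl13a: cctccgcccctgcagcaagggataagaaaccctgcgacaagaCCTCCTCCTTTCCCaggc
Rps10: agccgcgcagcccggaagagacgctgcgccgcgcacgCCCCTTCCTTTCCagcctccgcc
Rpl35a: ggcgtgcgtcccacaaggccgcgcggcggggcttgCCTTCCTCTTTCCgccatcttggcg
Rpl41: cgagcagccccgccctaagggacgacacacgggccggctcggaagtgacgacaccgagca
These windows lie at chr4:86857348-86857407 (minus strand), chr7:141447611-141447670 (plus), chr7:45128726-45128785 (minus), chr17:27635225-27635284 (minus), chr16:33056442-33056501 (plus) and chr10:128549149-128549208 (minus). The listed base was a C followed by at least 4 bases that are each C or T at 14 of 77 member starts (18.2%). The same held at 823 of 32851 starts of all genes (2.51%). The base before was not checked here either, and in Rpl14 and Rpl15, which are among the 14, the run begins upstream of the listed base. With that C anywhere within 10 bases of the start, such a stretch was present at 42 member starts (54.5%) and at 29.7% of all. The letters CCGGAAG, the core of ETS factor sites, occurred on either strand of the 250 bases before the start at 20 member starts (26.0%) and at 6.91% of all. GGGCGG, the core of SP1 sites, occurred at 37 (48.1%) and 32.7%, and TATAAA at 5 (6.49%) and 12.4%. AAGATGGC, the core of YY1 sites, searched on both strands of the whole 300 bases, occurred at 8 (10.4%) and 2.75%. These are matches of letters and not tested sites.

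The level of a gene is its TPM, which counts reads per base of transcript and sets the total of each library to 1000000. A difference between the groups is written on the log2(TPM + 1) scale with its SE (n = 3 in each group), and is negative where the level with AC was lower. The deposited values gave back between 19042049 and 32212701 reads per library on genes whose values were whole reads, of which the members held 563419 to 1165965. Markers of macrophages (10 of 10 above 1 TPM) were present in all libraries, although the lysozyme gene Lyz2 reached only 83.7 TPM in replicate 1 without AC, against 9270 TPM or more elsewhere. Replicates 1 and 2 of both groups held placental transcripts, with summed levels of 29 genes of 24.0 and 49.1 TPM without AC and 44.6 and 214.7 TPM with AC, against 0 and 0.423 TPM in replicate 3. Of 17 T cell markers, Cd3d, Cd2, Cd8b1 and Themis were listed at 0 in all libraries. The summed T cell level was 36.2 to 49.4 TPM without AC and 25.3 to 66.5 TPM with AC, nearly all of it from Cd28, and those of erythroid markers were 0.0652 to 3.47 and 0.357 to 17.5 TPM. Those of epithelial markers did not overlap between the groups, at 0.650 to 1.71 and 2.10 to 5.10 TPM. This rested on Krt8 and Krt18, which reached at most 2.17 and 2.24 TPM. Cdh1 lay at 0.283 to 0.821 TPM without AC and 0.283 to 0.338 TPM with AC. Krt19 reached at most 0.395 TPM, and Epcam was listed at 0 in all libraries. The part of these other cell type transcripts in the results below was not tested.

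Together the members made up about 6% of all transcripts. Their summed level was 61982, 64691 and 63168 TPM in the untreated libraries and 73716, 55605 and 49057 TPM in the AC libraries, in the order of replicates 1, 2 and 3, which holds for all sets of 3 values below. The untreated libraries thus lay close together, while AC replicate 1 stood above all of them and AC replicates 2 and 3 below. The group means were 63280 ± 1358 TPM and 59459 ± 12773 TPM (SD, n = 3), so the difference of -3821 TPM was smaller than the spread between the AC libraries. As a share of reads, the members took 3.33, 3.62 and 3.56% in untreated and 4.40, 3.09 and 2.69% in AC pretreated libraries, in the same order. Large subunit genes summed to 37959 ± 941 and 35722 ± 8009 TPM, and small subunit genes to 25322 ± 537 and 23737 ± 4764 TPM, so both subunits showed the same picture. In bulk RNA, fewer cells with a transcript and less of it per cell cannot be told apart.

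**Figure D1:**
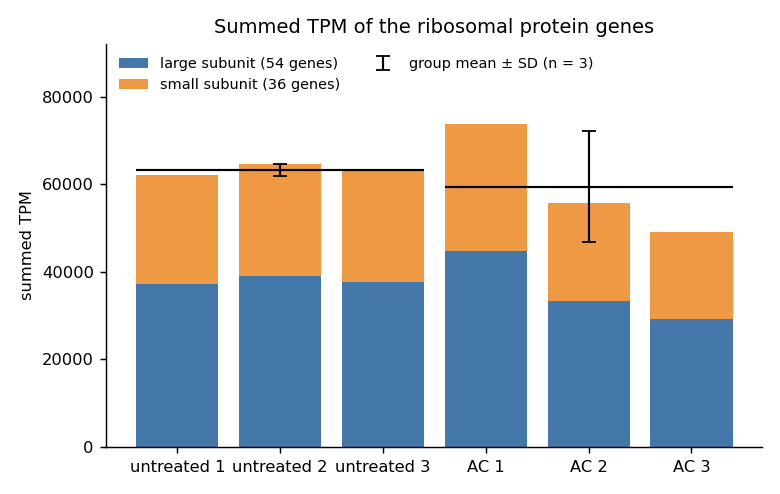
Summed TPM of the large (54) and small subunit genes (36) in each of the 6 libraries, as stacked bars from 0, with the mean ± SD of each group (n = 3) in black. The untreated libraries lie between 61982 and 64691 TPM, and the AC libraries spread from 49057 to 73716 TPM.

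The members moved together across the libraries. AC replicate 1 held the highest value of the 6 for 64 of the 86 members tested (74.4%), where it did so for 11.6% of all 12603 genes tested. AC replicate 3 held the lowest value for 61 (70.9%), against 18.7% of all genes, and both were true at once for 49 (57.0%), against 6.22% of all genes. The remaining lowest values were mostly in AC replicate 2, with 21 members. Centred on each gene's mean, the median core gene stood at 0.03, 0.10 and 0.07 log2 units in untreated and at 0.27, -0.13 and -0.33 in AC replicates 1, 2 and 3. All genes tested ran the other way in the AC libraries, with medians of -0.18, 0.04 and 0.05. The median SD within a group among core genes was 0.10 log2 units without AC and 0.36 with AC, and 0.16 and 0.29 for all genes tested. Of the 77 core genes, 73 (94.8%) varied more among the AC libraries than among the untreated ones, against 73.3% of all genes tested. Gm23935, annotated as a miRNA gene, took 73940 TPM of AC replicate 3 against 9648 to 13450 TPM elsewhere, which takes a share of TPM from every other gene of that library. Scaled without Gm23935, the median difference was -0.09 over the members, with 76 of 86 lower, and -0.04 over all genes tested, against -0.12 and -0.07 with it.

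**Figure D2:**
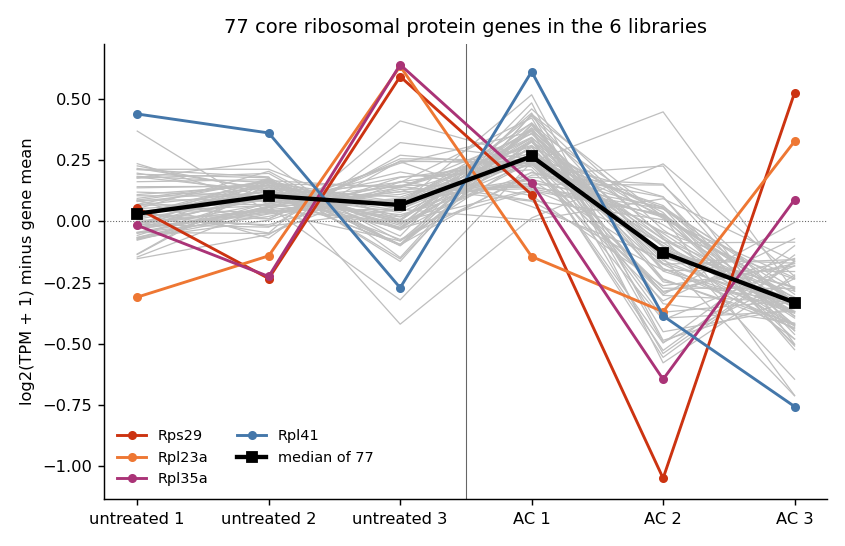
Log2(TPM + 1) minus the gene's mean over the 6 libraries for the 77 core genes (grey), their median (black squares) and Rps29, Rpl23a, Rpl35a and Rpl41 (coloured). Lines join the values of 1 gene and imply no order of libraries. The median lies at 0.27 in AC replicate 1 and -0.33 in AC replicate 3, and the coloured genes depart from it.

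Exposure to apoptotic cells was the only labelled difference between the groups. No ribosomal protein gene passed the test. Of the 86 members tested, 0 passed the adjusted threshold of 0.05 in the limma-trend fit, where 0 of 12603 genes did (0.0%), and 0 had an unadjusted p under 0.05, where 164 genes did (1.3%). By voom, limma's test on the recovered reads, 0 members and 0 genes passed. With array quality weights, which set untreated replicate 2 highest (7.24) and AC replicate 1 lowest (0.181), 5 members passed (Rpl37, Rpl11, Rpl36, Rps19 and Rplp2, all with lower AC means) and 276 genes did (2.19%). Lower AC means were common: 81 of 86 members (94.2%) had one on the log2(TPM + 1) scale, on which all counts of lower or higher means are given, against 70.6% of all genes tested. The median difference was -0.12 over the members, -0.12 over the large and -0.11 over the small subunit, and -0.07 over all genes. With median-of-ratios scaling the members' median was -0.05 and that of all genes -0.01, and 66 members had a lower AC mean.

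The direction rested on AC replicate 3. Without it the members' median was 0.02, with 33 of 86 lower. Without AC replicate 1 it was -0.29, with 83 of 86 lower. Among replicates 1 and 2 of both groups, the libraries with placental transcripts, the median was 0.02 with 39 of 86 lower, and between the pair of replicates 3 it was -0.42. Over all genes tested the median was -0.11 without AC replicate 3 and -0.13 among replicates 1 and 2, below that of the members. Between the pair of replicates 3 it was 0.05 over all genes tested, opposite in sign to the members. For 83 members (96.5%) the 95% interval of the difference lay inside 2-fold, and for 46 (53.5%) inside 1.5-fold. Across all genes tested these shares were 87.4% and 46.1%.

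**Figure D3:**
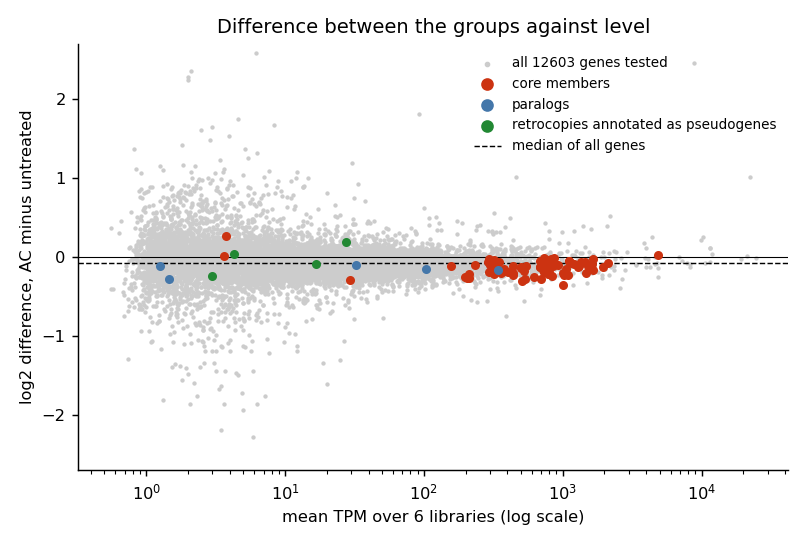
Log2 difference between the groups (AC minus untreated) against mean TPM over the 6 libraries on a log axis, for all 12603 genes tested (grey) and the members by class. The members lie between -0.35 and 0.27, most of them just under the dashed median of all genes.

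**Figure D4:**
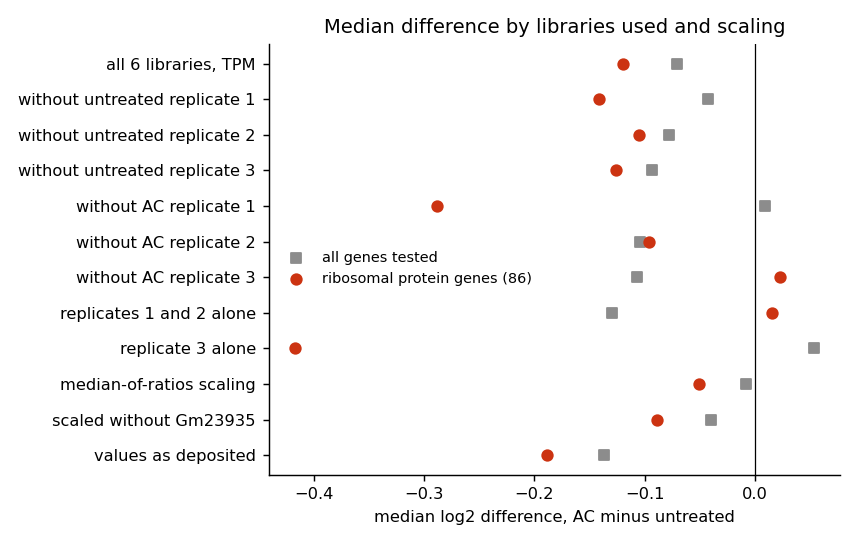
Median log2 difference (AC minus untreated) of the 86 ribosomal protein genes (red circles) and of all genes tested (grey squares), by the libraries used and the scaling. The members' median is 0.02 without AC replicate 3 and -0.42 between the pair of replicates 3.

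Rps6, the small subunit protein that S6 kinases phosphorylate below mTORC1, was the 1 member of 86 whose groups did not overlap, against 557 of 12603 genes (4.42%). Rps6 (chromosome 4, 86854660 to 86857412 on mm10) stood at 824, 826 and 857 TPM without AC and at 821, 675 and 673 TPM with AC. AC replicate 1 lay only just under the lowest untreated library. The difference was -0.21 ± 0.14 (unadjusted p = 0.153 by limma, adjusted p = 1.0, 95% interval -0.53 to 0.10). This was the smallest p among the members.

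The next smallest p values with lower AC means belonged to large subunit genes. Rpl7a (chromosome 2) stood at 1144, 1146 and 1257 TPM without AC and at 1175, 910 and 963 TPM with AC, a difference of -0.23 ± 0.15. Rpl37 (chromosome 15) stood at 580, 546 and 535 TPM without AC and at 602, 339 and 445 TPM with AC, a difference of -0.30 ± 0.20. AC replicate 1 lay within the untreated range for Rpl7a and above it for Rpl37, and AC replicates 2 and 3 lay below it for both. Rpl11, whose protein can bind and inhibit the p53 ligase MDM2 when ribosome assembly is disturbed, stood at 595, 585 and 553 TPM without AC and at 663, 398 and 406 TPM with AC. Its difference was -0.28 ± 0.21, and with array quality weights Rpl37 and Rpl11 differed by -0.61 and -0.51. Rpl15 and Rpl36a differed by -0.17 ± 0.14 and -0.27 ± 0.22. On leaving out 1 library at a time, the difference ranged from -0.51 to -0.10 for Rpl37, from -0.52 to -0.16 for Rpl11 and from -0.47 to -0.07 for Rpl36a.

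Few members had a higher AC mean on the log2(TPM + 1) scale, and these were 5 of 86: Rps4l, Rps10, Rpl6l, Rplp1 and Rpl24. In mean TPM, 8 of 86 were higher with AC, with Rps12, Rps3a2 and Rpl39l added. With the values as deposited, the differences of Rpl24 (-0.05), Rpl6l (-0.02) and Rplp1 (-0.04) were negative. Rps4l, a transcribed retrocopy of the X-linked Rps4x on chromosome 6, stood at 20.8, 27.5 and 28.6 TPM without AC and at 31.6, 30.4 and 25.8 TPM with AC, a difference of 0.19 ± 0.17. Rps10 and Rpl24 lay under 6 TPM in every library and differed by 0.27 ± 0.25 and 0.02 ± 0.25. Rpl6l, also a retrocopy, differed by 0.04 ± 0.32.

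The P-stalk, the lateral arm of the large subunit that recruits elongation factors, is built from Rplp0 and copies of Rplp1 and Rplp2. Rplp1 (chromosome 9, 61913284 to 61914542) was the most abundant member at 4606, 5181 and 4485 TPM without AC and at 6595, 4680 and 3667 TPM with AC. The AC libraries lay on both sides of the untreated ones, with a difference of 0.03 ± 0.22. Rplp0 (chromosome 5, 115559467 to 115563727) had the smallest spread of all members with a mean of at least 5 TPM, an SD of 0.082 log2 units over the 6 libraries. It stood at 1633, 1690 and 1638 TPM without AC and at 1792, 1541 and 1543 TPM with AC, a difference of -0.03 ± 0.13 (95% interval -0.34 to 0.28) that was 0.04 with median-of-ratios scaling. Rplp2, whose start is printed above, stood at 415, 432 and 411 TPM without AC and at 562, 279 and 314 TPM with AC. Its AC values held both the lowest and the highest of the 6 libraries, and the difference was -0.19 ± 0.25, or -0.54 with array quality weights.

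The other abundant core genes also spread more widely with AC. Rps3a1 (chromosome 3), the second in level, stood at 2103, 2246 and 2149 TPM without AC and at 2390, 2344 and 1546 TPM with AC, so that AC replicate 3 alone was low and AC replicate 2 lay above every untreated library. Rps15 (chromosome 10) stood at 1848, 2051 and 2208 TPM without AC and at 2253, 1553 and 1853 TPM with AC, lowest in AC replicate 2. The X-linked Rpl10, a late-joining protein near the catalytic centre, averaged 1662 ± 59.0 TPM without AC and 1576 ± 270 TPM with AC. Rpsa, also known as the laminin receptor, averaged 699 ± 62.5 and 685 ± 174 TPM. Rps27a, which encodes a ribosomal protein fused to ubiquitin, averaged 750 ± 76.3 and 685 ± 202 TPM. None of these had groups that stood apart.

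A handful of members departed from the shared course, and they were picked after their values were seen, by the spread left once the core median of each library was taken off. Rps29 (chromosome 12, 69157722 to 69159186) varied most of all members with a mean of at least 5 TPM. It stood at 677, 554 and 984 TPM without AC and at 703, 314 and 939 TPM with AC, so that replicate 2 was lowest and replicate 3 highest within each group. Rpl23a (chromosome 11) stood at 532, 599 and 1026 TPM without AC and at 597, 511 and 829 TPM with AC. Rpl35a (chromosome 16) stood at 200.2, 173 and 316 TPM without AC and at 226, 129 and 215 TPM with AC. All 3 genes were thus high in untreated replicate 3, and relative to the core median in AC replicate 3 too. Rpl41, which encodes the smallest ribosomal protein, went the other way. It stood at 1293, 1226 and 790 TPM without AC and at 1459, 729 and 564 TPM with AC, a difference of -0.35 ± 0.35 that ranged from -0.75 to -0.06 on leaving out 1 library. In Rpl23a, 62.3% of the annotated exon bases overlap exons of other genes on either strand and 2.60% on the same strand, and 63.2% of its 150-base words also occur in transcripts of other genes. The gene that overlaps it on the other strand, Tlcd1, lay between 0.41 and 0.88 TPM.

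The values in AC replicate 2 went with transcript length. Among the 74 core genes of at least 100 TPM, the centred value in AC replicate 2 increased with the length of the principal transcript (Spearman's rho 0.476 across genes, which share libraries and are not independent replicates). In AC replicates 1 and 3 rho was -0.331 and -0.193, and in untreated replicates it was -0.283, 0.0586 and -0.0112. On merged exon length, the length used for scaling, rho in AC replicate 2 was 0.207. The 20 genes with the shortest principal transcripts, 345 to 589 bases, had median centred values of 0.32, -0.37 and -0.27 in AC replicates 1, 2 and 3. The 20 with the longest, 1050 to 5130 bases, had 0.24, -0.02 and -0.34. The lowest library was AC replicate 2 for 12 and AC replicate 3 for 8 of the 20 shortest, and AC replicate 2 for 3 and AC replicate 3 for 17 of the 20 longest. Rpl36, Rps21, Rps28 and Rpl38, all among the shortest, had their lowest value in AC replicate 2, at 966, 556, 141 and 306 TPM. The shortest of all, Rps27, was lowest in AC replicate 3, as was Rplp1. In untreated libraries Rpl36, Rps21, Rps28 and Rpl38 averaged 1557 ± 149, 840 ± 77.8, 224 ± 37.4 and 471 ± 65.1 TPM.

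**Figure D5:**
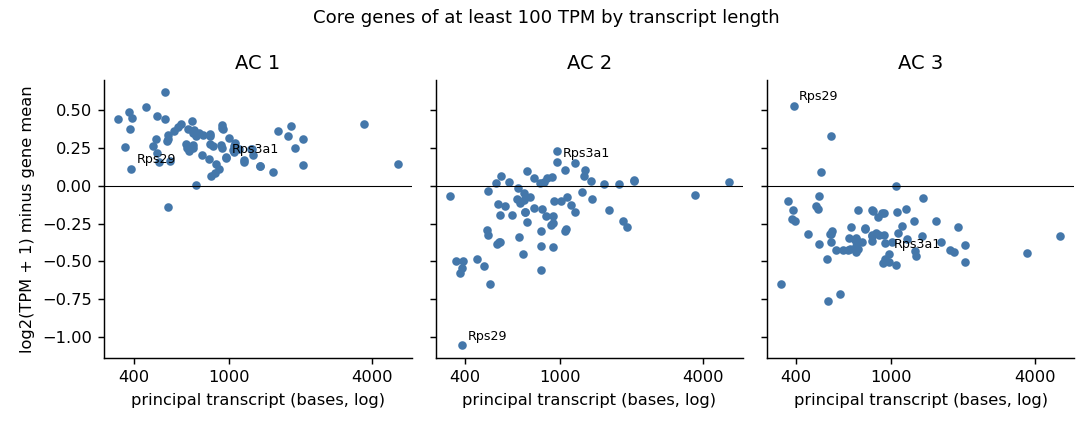
Log2(TPM + 1) minus the gene's mean over the 6 libraries against the length of the principal transcript on a log axis, for the 74 core genes of at least 100 TPM, with 1 panel for each AC replicate. Short transcripts lie low in AC replicate 2 (rho 0.476), with Rps29 the lowest, and the slope is weak and negative in the other panels (-0.331 and -0.193).

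The levels of the core genes differed from each other far more than between libraries. Per base of merged exons, 73 of 77 lay between 100 and 2500 TPM on average, with a median of 701 TPM and quartiles of 381 and 1010 TPM. The order of the genes was nearly the same in every pair of libraries (Spearman's rho 0.929 to 0.994 across 77 genes). The length used for scaling was that of the merged exons of all annotated transcripts, a median of 2.23 and up to 6.91 times the principal transcript. Merged length and mean TPM were inversely related (rho -0.58 across genes). Scaled to the principal transcript instead, an alternative chosen after seeing the data, the ratio of the upper to the lower quartile was 1.84 in place of 2.65. Rplp1 stayed first, Rpl10 moved from 6th to 2nd place, Rps19 from 73rd to 50th and Rps3a1 from 2nd to 16th. The order of the members by level thus depends on the length used.

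The exceptions at the low end were 3 core genes under 100 TPM. Rpl24 averaged 3.66 TPM over the 6 libraries, with 16 to 47 reads per library. Rps10 averaged 3.72 TPM, with 40 to 96 reads, and Rpl13a, whose protein can leave the ribosome in interferon-treated myeloid cells, 29.5 TPM. These 3 genes also had the largest share of exon bases overlapped by another gene on the same strand among core members, at 47.0, 20.6 and 35.4%. The overlapping genes of Rpl24 and Rpl13a, Gm28037 and Gm45713, were listed at 0 in all 6 libraries. How reads in such overlaps were counted is not given in the sources used here, and the part of the overlap in these low values was not tested. Of the 77 core genes, 69 shared some 150-base words with transcripts of another annotated gene, a median of 11.1% of their words, so all these levels are uncertain where reads map to several places.

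Paralogs, some of which can replace the standard protein in some tissues, were mostly low. Rps27l took 29.9 to 36.0% of the summed TPM of Rps27 and Rps27l, and averaged 358 ± 11.2 TPM without AC and 329 ± 94.8 TPM with AC. Rpl22l1 took 10.3 to 16.1% of its pair with Rpl22, and its share was 12.5 ± 3.16% in untreated and 12.3 ± 1.42% in AC pretreated libraries. Rpl7l1 took 10.1 to 12.8% of its pair with Rpl7, at 109 ± 6.30 and 97.9 ± 8.44 TPM. The retrocopy Rps4l took 1.40 to 2.48% of its pair with Rps4x. None of these shares stood apart between the groups. The size of a share also depends on the length used for scaling. Scaled to the principal transcript, Rps27l and Rps27 averaged 281 and 1112 TPM over the 6 libraries. On that scale Rpl22l1 and Rpl22 averaged 58.8 and 166 TPM, and Rpl7l1 and Rpl7 averaged 92.2 and 907 TPM. Among the standard forms, Rpl3, Rpl22, Rps27 and Rpl39 differed by -0.12 ± 0.16, -0.11 ± 0.20, -0.18 ± 0.26 and -0.20 ± 0.26. Rpl36al and Rpl39l averaged under 2 TPM in either group, on 2 to 21 reads per library for Rpl39l. In Rpl36al, 24.5% of exon bases are overlapped on the same strand by Gm49383, which was listed at 0 in all libraries. The part of this overlap in the low value of Rpl36al was not tested. Rpl3l, the striated muscle form of Rpl3, had 0 to 4 reads per library and was not tested. Rpl10l, the testis form of Rpl10, had 0 reads in every library, which allows up to 3 reads in each. Rps12l1 was also at 0, and Rpl32l, with 0 to 10 reads, failed the filter too.

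Fau and Rack1 belong to the ribosome but fall outside the name rule. Fau, which encodes a small subunit protein fused to a ubiquitin-like domain, stood at 1964, 1962 and 1695 TPM without AC and at 2308, 1416 and 1358 TPM with AC, a difference of -0.19 ± 0.22. Rack1, a scaffold on the small subunit, differed by 0.02 ± 0.15, or -0.05 with the values as deposited. In this and the following lists 0 genes passed the test over all genes, and at an unadjusted p under 0.05 only Cdkn1a did.

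Genes of the machinery around the ribosome were summarised from lists, whose counts stand beside 70.6% of all genes tested with a lower AC mean and a median of -0.07. A list of elongation, initiation and nascent chain factors, many with TOP mRNAs of their own, also held other genes such as Pabpc1, Npm1, Nap1l1 and Hnrnpa1. In it 19 of 20 tested genes had lower AC means with a median of -0.12. AC replicate 1 was the highest library for 7 of the 20 and AC replicate 3 the lowest for 11. Eef1a1, the elongation factor that delivers aminoacyl-tRNA, was the most abundant at 8901, 8498 and 8415 TPM without AC and at 7596, 8877 and 7302 TPM with AC. Eef2, the translocase, differed by -0.27 ± 0.16, Eif4b by -0.30 ± 0.15, and Eif3f by -0.16 ± 0.12, with Eif3f the 1 gene of the list whose groups did not overlap (4.42% of all genes tested). Npm1, a nucleolar chaperone, differed by -0.14 ± 0.15, and Tpt1 by 0.06 ± 0.19, or -0.01 with the values as deposited. Of 43 ribosome biogenesis genes 34 had lower AC means with a median of -0.09, among them Pes1 (-0.15 ± 0.12), Ncl (-0.17 ± 0.15), Nop2 (-0.18 ± 0.14), Grwd1 (-0.23 ± 0.18) and Fbl (-0.09 ± 0.16). AC replicate 1 was their highest library for 8 and AC replicate 3 their lowest for 6, and their median centred values were -0.15, 0.01 and 0.04 in AC replicates 1, 2 and 3, close to those of all genes tested. In the list of RNA polymerase I and its factors all 13 genes had lower AC means, with a median of -0.11, including Polr1c at -0.22 ± 0.16. That list also held Znhit3 (-0.25 ± 0.17) and Znhit6 (-0.18 ± 0.18), which encode neither subunits nor transcription factors of the polymerase.

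Among genes of mTORC1 and of TOP mRNA control, 20 of 26 had lower AC means with a median of -0.10. Their median centred values of -0.30, -0.03 and 0.17 in AC replicates 1, 2 and 3 ran in the same order as those of all genes tested (-0.18, 0.04 and 0.05). Larp1 stood at 60.9, 54.9 and 57.5 TPM without AC and at 42.1, 53.4 and 78.4 TPM with AC, lowest in AC replicate 1 as were 5925 of all 12603 genes tested. Mtor differed by -0.21 ± 0.25, Rps6kb1, which encodes an S6 kinase, by 0.10 ± 0.19, and Eif4ebp1, the translation repressor that mTORC1 phosphorylates, by -0.32 ± 0.33. On leaving out 1 library Mtor ranged from -0.42 to -0.0075 and Eif4ebp1 from -0.67 to -0.12. The related Eif4ebp3 and the mTORC1 inhibitor gene Ddit4, both under 5 TPM in every library, differed by -0.53 ± 0.33 and -0.45 ± 0.28. These values depend on the pseudocount, and were -0.70 and -0.75 with 0.1 and -0.26 and -0.16 with 5. Myc, a transcription factor that promotes ribosome production, differed by 0.51 ± 0.28, at 3.74 to 7.26 TPM without AC and 6.29 to 10.9 TPM with AC. In the list of ribosome quality control and nucleolar stress 13 of 16 had lower AC means with a median of -0.05. Its smallest p was that of the cell cycle inhibitor gene Cdkn1a, which averaged 188 and 138 TPM, a difference of -0.46 ± 0.20 (unadjusted p = 0.048 and adjusted p = 1.0 by limma). Mdm2 differed by -0.13 ± 0.17 and Ascc2 by -0.13 ± 0.16.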

How the data were processed

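The authors deposited 1 table of a signal per gene and library, named TPM, for poly(A) RNA of 6 BMDM libraries. Tools and build in the submitters' processing notes are mm10, featureCounts 2.0.3 of Subread and the aligner STAR 2.7.10a. Annotation release, strand setting and the handling of multiply mapped reads are not stated there. Multiplied by merged exon length (GENCODE mouse release 21) and divided by 8.57, the signal came out as whole reads (tolerance 0.02) for 98.6% of the detected genes that matched the annotation and for all 88 members above 0. It was thus not scaled for library size. Each column was rescaled to 1000000. The test was limma 3.58.1 in R 4.3.3 (eBayes with trend) on log2(TPM + 1) for the genes that reached 1 TPM in 3 or more libraries, 2-sided, Benjamini-Hochberg adjusted over all genes, threshold 0.05. The test was tried on simulated data. Principal transcripts are those that GENCODE tags as APPRIS principal, with the median length where a gene has several. Other steps used Python 3.11.15 and pandas 2.3.3.

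The members and lists were chosen with earlier results of these data known. Named members were the 6 highest by level, the 6 smallest p in each direction, the P-stalk, Rpsa, Rps6, Rps27a, Rpl41, the paralog pairs, those with the largest and smallest spread, and those without overlap of the groups. From each list the 3 smallest p and a fixed set were named. Rpl23a, Rpl35a, Rpl36, Rps21, Rps28, Rpl38, Rps19, Rpl13a, Rps12l1, Rpl32l and the markers fall outside this rule. Some genes that the rule would name are not reported here.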

Additional observations from a re-analysis of the deposited data

How the results depend on the processing

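Under the limma fit 0 genes and 0 members were called, and this count also held with the replicate block. Over all genes, same-numbered libraries of the 2 groups did not all deviate together (correlations -0.06, 0.01 and 0.17), so the numbers were not taken as pairs, although placental transcripts and the high Rps29 and Rpl23a of replicate 3 were shared by number. The count of genes was 16 with values as deposited, 1 without the variance trend and 276 with array quality weights, where 5 members passed. The members with a lower AC mean numbered 33 to 83 on leaving out 1 library and 39 among replicates 1 and 2 alone. The summed TPM differed by -10950 to 1380 on leaving out 1 library and by -14111 in replicate 3 alone, where the median difference was -0.42. On leaving out 1 library the median ranged from -0.29 to 0.02 over the members, from -0.29 to 0.02 over the large and from -0.29 to 0.03 over the small subunit. The cause of these changes was not tested. The difference changed sign with values as deposited for Rack1 (-0.0483), Rpl24 (-0.0509), Rpl6l (-0.0175), Rplp1 (-0.0424) and Tpt1 (-0.0105). The difference changed sign with median-of-ratios scaling for Larp1 (0.027), Rpl7 (0.0363), Rplp0 (0.0412), Rps4x (0.0122) and Rpsa (0.0128). The difference changed sign scaled without Gm23935 for Rplp0 (0.00473). The difference changed sign with array quality weights for Eef1a1 (0.0113), Mdm2 (0.0591), Npm1 (0.0501), Rpl22l1 (0.0945), Rpl7 (0.0715), Rplp1 (-0.13), Rps3a1 (0.0108) and Rps4x (0.0392). The difference changed sign in replicates 1 and 2 alone for Fbl (0.0249), Npm1 (0.00449), Rpl10 (0.0752), Rpl22 (0.0773), Rpl22l1 (0.22), Rpl24 (-0.0723), Rpl36al (0.068), Rpl39 (0.0506), Rpl39l (0.0969), Rpl7 (0.17), Rplp0 (0.000625), Rps27a (0.0916), Rps27l (0.0525), Rps3a1 (0.12), Rps4x (0.13) and Rpsa (0.0773). The difference changed sign by voom for Rpl7 (0.00979) and Rplp0 (0.0145). Leaving out 1 library at a time turned other signs. The ranges were Larp1 -0.28 to 0.16, Mdm2 -0.24 to 0.0441, Rack1 -0.0549 to 0.15, Rpl10 -0.20 to 0.0504, Rpl22 -0.29 to 0.12, Rpl22l1 -0.23 to 0.0802 and Rpl24 -0.19 to 0.13. They were also Rpl3 -0.21 to 0.0185, Rpl39 -0.45 to 0.10, Rpl39l -0.55 to 0.19, Rpl6l -0.22 to 0.30, Rpl7 -0.12 to 0.13, Rplp0 -0.10 to 0.00871 and Rplp1 -0.20 to 0.23. Others were Rplp2 -0.50 to 0.00304, Rps15 -0.26 to 0.0094, Rps27 -0.45 to 0.0924, Rps27a -0.39 to 0.0137, Rps27l -0.37 to 0.0414 and Rps29 -0.61 to 0.18. The last were Rps3a1 -0.19 to 0.13, Rps4x -0.18 to 0.18, Rps6kb1 -0.00647 to 0.26, Rpsa -0.23 to 0.14 and Tpt1 -0.0561 to 0.22.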

Other observations

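Rows named as ribosomal protein pseudogenes by the suffix -ps were left out of the members. The 319 such rows summed to 1380, 1455 and 1069 TPM without AC and 1332, 1552 and 739 TPM with AC. Their highest library was AC replicate 2, which was below every untreated library for the members, and their lowest was AC replicate 3, as for the members. Of these rows Rpl17-ps10 was looked at singly, and averaged 184 ± 29.2 TPM without AC and 154 ± 24.1 TPM with AC, with its lowest value in AC replicate 1. Among the retrocopies without the suffix, Rps3a2 stood at 17.4, 18.4 and 13.6 TPM without AC and 22.4, 20.7 and 7.63 TPM with AC, in the same order as Rps3a1 within the AC group, and 60.5% of its 150-base words also occur in other genes.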
